A study of Mus musculus with 11 samples.

Results

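Atf5 and 9 genes of the integrated stress response were followed in the main olfactory epithelium (MOE) of newborn mice that lacked Bcl11b. The 10 genes are Atf5, Atf4, Atf3, Ddit3, Trib3, Asns, Chac1, Eif2ak3, Hspa5 and Ppp1r15a. They were represented by every probe set that the platform annotation assigns to exactly 1 of these symbols, which gave 19 probe sets of 45101 on the array, and 10 genes of 18194 with a probe set of their own. A probe set is a group of short DNA probes that report together on a transcript. These genes were chosen with results of the comparison made here known, so their differences between groups are given as a description and carry no test of their own.

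The integrated stress response is a common answer of cells to misfolded protein in the endoplasmic reticulum (ER), lack of amino acids, haem shortage and viral RNA. Each signal acts through its own kinase on the translation factor eIF2, which lowers protein synthesis in general while mRNAs such as Atf4 and Atf5 are translated better. Olfactory sensory neurons (OSNs) use the ER branch during development, since newly made odorant receptor engages the kinase PERK and raises Atf5 protein, and the rise ends once Adcy3 is expressed. Much of the control of Atf4 and Atf5 is thus on translation, which an array of mRNA does not measure.

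The mutants were conventional Bcl11b knockout mice (KO, Bcl11b-/-), which lack the zinc-finger transcription factor Bcl11b in every tissue, and their controls were wild-type mice (WT), all taken on the day of birth (day 0) from matings of heterozygous parents. Per the paper, this knockout line was kept on a BALB/c background. There were 6 KO arrays and 5 WT arrays, with the whole MOE of 1 mouse on each. KO 3 and KO 6 came from females and the other 9 arrays from males. The signal is a linear intensity that was scaled so that the Gapdh probe set reads 10000 on every array.

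Promoter sequences of the 10 genes are shown first, because several of the genes carry the same binding element of ATF4. The RefSeq windows (build GRCm38.p6) run from 250 bases before to 50 bases after the transcript start, and 11 windows covered all 10 genes. Both strands were searched for 3 elements, which do not overlap each other in these windows. The C/EBP-ATF response element, TGATGNAA, which ATF4 and its partners bind, was found in 4 of the 11 windows and in 3.97% of all 32851 windows. The cAMP response element, TGACGTCA, was found in 1 of them and in 1.79% of all windows. The ER stress response element, CCAAT and CCACG held apart by 9 bases, was found in 1 of them and in 0.119% of all windows. The sequences below are written 5′ to 3′ on the strand of the gene, with the element in capitals.
Asns (chr6:7693210-7693269, minus strand, element at -23 to -16 from the start): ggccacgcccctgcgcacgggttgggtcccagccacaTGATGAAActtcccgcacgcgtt
Atf3 (chr1:191183410-191183469, minus strand, element on the opposite strand at -110 to -103): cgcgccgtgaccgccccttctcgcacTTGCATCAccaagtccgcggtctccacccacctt
Chac1 (chr2:119351023-119351082, plus strand, element on the opposite strand at -193 to -186): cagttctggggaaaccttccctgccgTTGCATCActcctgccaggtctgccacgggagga
Trib3 (chr2:152344028-152344057, minus strand, element on the opposite strand at 15 to 22): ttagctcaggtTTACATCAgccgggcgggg
Ppp1r15a (chr7:45526269-45526328, minus strand, cAMP response element at -12 to -5): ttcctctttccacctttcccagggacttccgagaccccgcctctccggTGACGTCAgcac
Hspa5 (chr2:34772005-34772064, plus strand, ER stress response element at -65 to -47): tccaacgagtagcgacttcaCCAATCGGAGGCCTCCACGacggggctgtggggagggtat
The windows of Atf5, Atf4, Ddit3 and Eif2ak3 held none of these letters. A match is a description of the sequence and not of binding.

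Before the members are described, the arrays themselves are given in brief. Bcl11b, the deleted gene, had signals of 560 to 1250 (mean 893 ± 242, SD, n = 6) in KO and 2694 to 4123 (mean 3257 ± 529, SD, n = 5) in WT, and all 4 of its probe sets fell. Whether these probe sets lie inside the deleted part was not determined. KO 3 stood apart among the members: it had the lowest signal of all 11 arrays for 10 of the 16 probe sets that were bright enough to test, while it was lowest for 28.1% of all 33662 tested probe sets. KO 3 and KO 2 also had the highest ratios of the 3′ to the 5′ probe set of Gapdh, a sign of RNA quality, at 2.70 and 2.42, and the range was 1.82 to 2.70 in KO and 1.88 to 2.27 in WT. KO 1 stood apart in another way, with a summed signal of 28500 over 17 immediate early genes, against 11500 to 17053 on the other KO arrays and 12236 to 17271 in WT. In the limma fit over all 33662 tested probe sets, 82 rose (0.244%) and 71 fell (0.211%) in KO at an adjusted p under 0.05.

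Of the 10 genes, Trib3, Ddit3, Ppp1r15a and Atf5 had lower mean signals in KO than in WT, at 60.9%, 62.2%, 68.8% and 84.8% of the WT mean for the brightest probe set of each. Atf4, Chac1, Hspa5 and Eif2ak3 had KO means between 96.5% and 111% of the WT mean. Asns and Atf3 had KO means of 113% and 139% of the WT mean, with a log2 SD among KO arrays of 0.91 for each. Of the 16 tested probe sets (mean signal of at least 20), 10 had a negative and 6 a positive log2 difference, with a median of -0.03, beside 39.6% negative and a median of 0.05 over all tested probe sets. 1 of the 16, a Trib3 probe set, was past the threshold, beside the 0.211% of all tested probe sets that fell. Every KO array lay below every WT array for 2 of the 16 (Trib3 and Ddit3), beside 0.573% of all tested probe sets, and above every WT array for 0 of the 16, beside 0.716%. Nothing is read from these counts, since the genes were selected on this comparison.

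**Figure D1:**
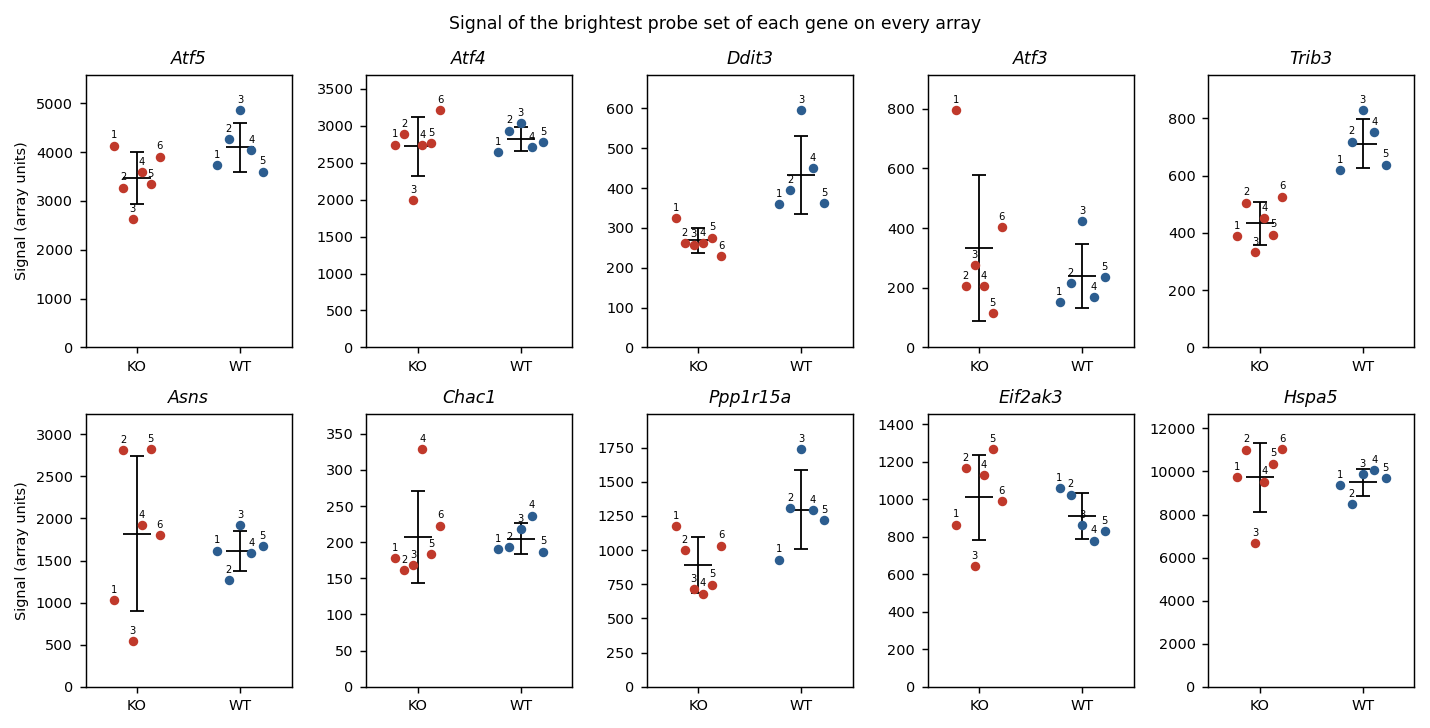
Signal in array units (linear axes from 0) of the brightest probe set of each of the 10 genes on every array, KO left and WT right; points are single mice with their replicate number, the bar is the mean and the whiskers 1 SD. KO and WT points do not overlap for Trib3 and Ddit3, and Asns spans 540 to 2820 among the 6 KO arrays.

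Atf5, the transcription factor of the receptor-driven ER signal in OSNs, had lower values in most KO mice without a separation of the groups. Its probe set (1425927_a_at) gave 4131.5, 3273.4, 2622.9, 3593.9, 3341.4 and 3906.3 on KO 1 to KO 6, and 3728.7, 4270.7, 4859.2, 4041.6 and 3602.4 on WT 1 to WT 5. The groups overlapped: 4 of the 6 KO arrays were below the lowest WT array, while KO 1 and KO 6 lay within the WT range. The log2 difference was -0.24 ± 0.12 (SE), and -0.17 without KO 3. It was below 0 under all 25 alternative settings that were run, within -0.43 to -0.13, and past the threshold under none of them.

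Atf4, the main effector of the pathway, gave nearly the same mean signal in both groups. On its brightest probe set (1448135_at) it had 2743.8, 2884.4, 1997.9, 2732.1, 2763.2 and 3210.4 in KO, against 2641.1, 2934.5, 3039.7, 2707.3 and 2780.1 in WT. The only KO array below the WT range was KO 3, and the log2 difference was -0.06 ± 0.11, or 0.02 without that array. On the other tested probe set (1438992_x_at) the difference was 0.01 ± 0.18. There the arrays split another way: WT 1 and WT 2 had 2920.5 and 2949.4, KO 4 and KO 6 had 2874.5 and 2807, and the other 7 arrays lay between 1523 and 2209.1. These 4 arrays are among the 5 with the higher poly-A controls (KO 4, KO 5, KO 6, WT 1 and WT 2), the bacterial transcripts that are spiked in to follow labelling, and their part in the pattern was not tested. A further probe set (1439258_at) was dim on every array, at 5.5 to 22.5 in KO and 3.5 to 6.9 in WT, and was not tested.

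Ddit3 encodes CHOP, the factor that ATF4 induces and that turns on later targets of the response. Its brightest probe set (1417516_at) gave 324.9, 261, 257.8, 262.3, 275.9 and 230.1 in KO, against 359.5, 394.7, 595.5, 449.4 and 361.3 in WT. All 6 KO arrays lay below all 5 WT arrays, and the KO arrays were the more uniform, with a mean of 269 ± 31.4 (SD, n = 6) in KO and 432 ± 98.3 (SD, n = 5) in WT. The log2 difference was -0.64 ± 0.16 and did not pass the threshold over the whole table. It was -0.63 without KO 3, and -0.53 among the arrays with higher and -0.68 among those with lower poly-A controls. The other Ddit3 probe set (1443897_at) was dim, with 11.5 to 72.7 in KO and 29 to 45.6 in WT, and its difference of -0.23 ± 0.27 was smaller than its error.

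Atf3, an early stress factor that neurons and epithelia also induce on injury, had the largest spread among KO arrays of the brightest probe sets of the 4 factors. Its signals were 794.9, 206.6, 275.8, 205.8, 114 and 402.4 in KO, against 152.8, 216.6, 423.9, 169.1 and 234.5 in WT. KO 1 had the highest value and KO 5 the lowest, so that the KO arrays enclosed the WT range at both ends. The log2 difference was 0.29 ± 0.36, and it was -0.01 when KO 1, the array with the high immediate early genes, was left out; the part of those genes in the Atf3 values was not tested. The SD of log2 values was 0.91 among KO arrays and 0.54 among WT arrays.

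Trib3 encodes a pseudokinase that is induced by ATF4 and CHOP and in turn restrains ATF4. Its brightest probe set (1456225_x_at) gave 387.8, 505.7, 333.7, 450.5, 393.9 and 526.4 in KO, against 619.4, 718.4, 828.6, 750.8 and 638.5 in WT. The highest KO array was below the lowest WT array, and the means were 433 ± 74.5 (SD, n = 6) in KO and 711 ± 85.3 (SD, n = 5) in WT. The log2 difference was -0.70 ± 0.15, the largest in size of the 16 tested. The second probe set (1426065_a_at) gave 275.8, 300.2, 202.1, 304.8, 278.3 and 371 in KO, against 356.5, 612.2, 536.3, 417.5 and 378.7 in WT. Only KO 6 reached into the WT range there, and the difference was -0.64 ± 0.18. After subtraction of the group means both probe sets followed each other over the 11 arrays with a Pearson r of 0.79, a description over arrays that share the same scaling.

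The Trib3 difference kept its direction in every setting run, from -0.88 to -0.64 on the brightest probe set, and had -0.54 among arrays with higher and -0.84 among arrays with lower poly-A controls. Its place past the threshold was less steady, since it was held in 13 of 25 alternatives. It was lost with scaling to the array median, without the intensity trend, with sex in the fit, with the replicate number in the fit (which drops KO 6), and when any 1 of WT 1 to WT 5, KO 1, KO 4 or KO 5 was left out. Among males only the difference was -0.69 and past the threshold, while with sex in the fit it was the same -0.69 with a larger standard error. The suffix _x of the probe set also marks probes that can bind more than 1 transcript.

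**Figure D2:**
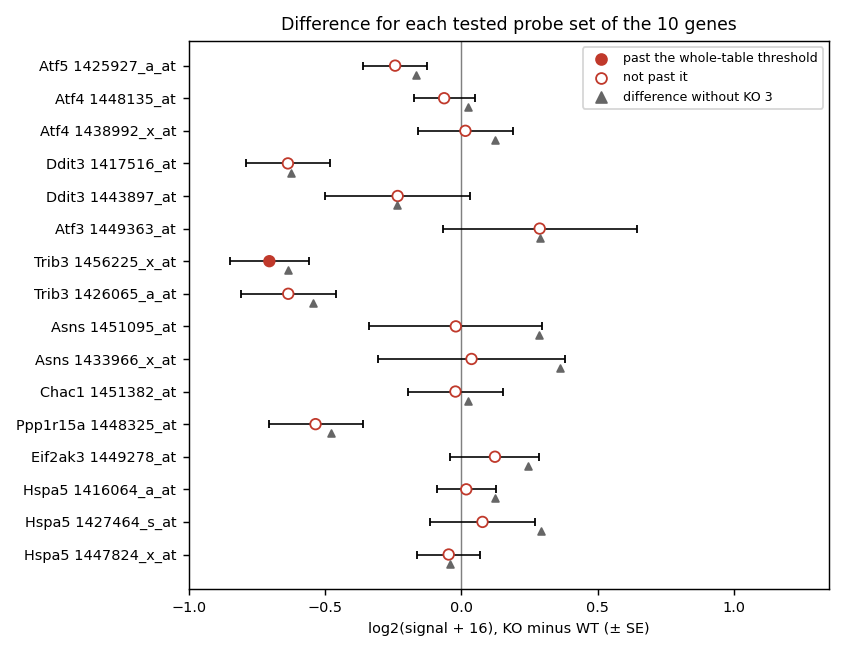
Log2 difference (KO minus WT, on signal + 16) of the 16 tested probe sets of the 10 genes, with the standard error as whiskers; the filled circle is the probe set past the threshold over all 33662 and triangles are the difference without KO 3. Trib3, Ddit3 (1417516_at) and Ppp1r15a lie between -0.70 and -0.54 and move little without KO 3, while both Asns probe sets move to 0.28 and 0.36.

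Asns, asparagine synthetase and a classical ATF4 target, had close group means and a wide spread in KO. Its brightest probe set (1451095_at) gave 1025.4, 2808.2, 539.6, 1920.3, 2820.3 and 1802.6 in KO, against 1618.7, 1269, 1919.3, 1586.1 and 1673.1 in WT. The highest KO array was 5.23-fold above the lowest, and in WT this ratio was 1.51. KO 1 and KO 3 lay below the WT range, and KO 2, KO 4 and KO 5 above it. The SD of log2 values was 0.91 in KO and 0.21 in WT, and only 0.768% of the 20300 tested probe sets with a mean signal of at least 100 had as large an SD in KO. The other probe set (1433966_x_at) had the same order of arrays at both ends, from 418.1 on KO 3 to 2572.3 on KO 5, and followed the first with r = 0.99.

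The mean Asns difference therefore depended on which KO arrays were counted. It was -0.02 ± 0.32 over all arrays and 0.28 without KO 3 on the brightest probe set. Among the arrays with higher poly-A controls it was 0.57, and among those with lower ones -0.56, so the sign differed between the sets. The difference between the sets was not tested.

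Genes of the nasal glands varied with Asns, and they were chosen after its spread had been seen. Over the 10 gland genes measured (Aqp5, Dmbt1, Muc5b, Bpifa1, Bpifb3, Bpifb5, Bpifb9b, Odam, Ltf and Spdef), the summed signal ranged from 20121 to 62056 in KO and from 44651 to 50345 in WT. KO 3 was the lowest of all 11 arrays for 7 of the 10. Bpifb9b, a secreted protein of the BPI fold family, had 748.8 on KO 3 against 15069 to 20019 on the other KO arrays and 15646 to 17136 in WT. Odam, a secreted protein, had 20 on KO 3 and 410.2 on KO 1, against 963.2 to 1926.3 on the other KO arrays and 505.9 to 797.8 in WT. Ltf, the secreted iron binder lactoferrin, was highest on KO 2 and KO 5, at 4249 and 3238.3, and its WT range was 880.4 to 2264.2. After subtraction of the group means the Pearson r with Asns had a median of 0.90 over the 10 genes, from 0.27 for Bpifb3 to 0.96 for Odam, over 11 arrays that share 1 scaling and differ in the Gapdh 3′/5′ ratio. The co-variation was not particular to Asns: with Hspa5 the median r of the same genes was 0.84, from 0.14 for Muc5b to 0.94 for Bpifb5, and 3 of the 10 had a higher r with Hspa5 than with Asns. None of the 10 was near 0 on average, the dimmest being Dmbt1 with a mean of 279. KO 3 was also the lowest of all 11 arrays for the brightest probe sets of Asns and Hspa5. For the Hspa5 probe set 1447824_x_at the lowest array was KO 2, at 919, and KO 3 had 1059. The r values of the gland genes were not computed without KO 3, whose part in them was not tested. The part of gland tissue in the Asns and Hspa5 values was not tested.

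**Figure D3:**
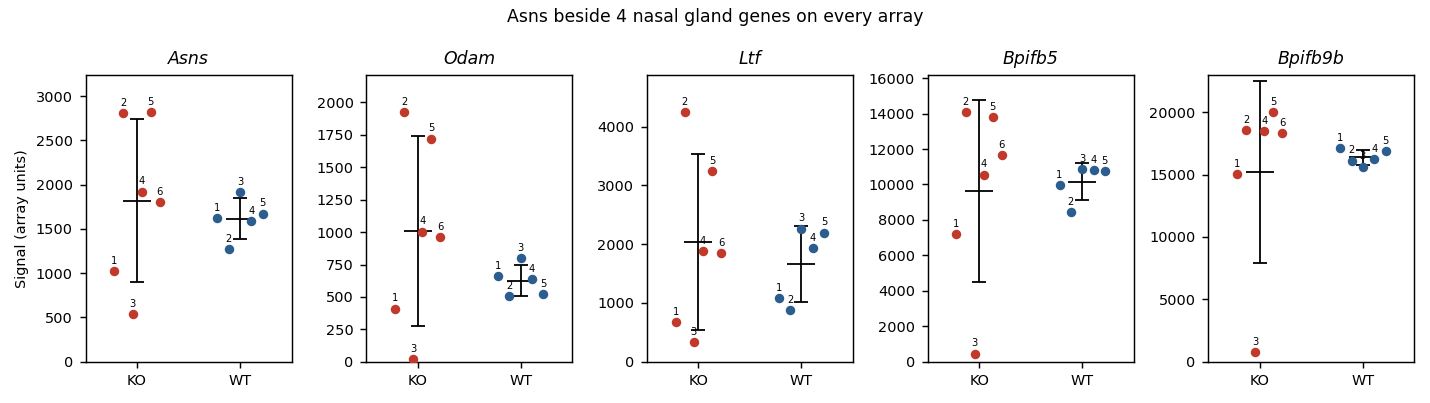
Signal in array units (linear axes from 0) of Asns and of Odam, Ltf, Bpifb5 and Bpifb9b on every array, KO left and WT right, with the replicate number at each point, the mean as a bar and 1 SD as whiskers. KO 3 is lowest in all 5 plots and KO 2 and KO 5 are at or near the top, and WT points lie between these extremes.

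Chac1, which degrades glutathione and is induced by ATF4, had close group means. It gave 177.7, 161.8, 168.7, 328.3, 183.3 and 222.8 in KO, against 190.3, 193.3, 217.7, 236.8 and 187.1 in WT. KO 4 alone was above the WT range and 4 KO arrays were below it, with a difference of -0.02 ± 0.18. The SD of log2 values was 0.36 in KO and 0.14 in WT, and the difference was 0.29 among arrays with higher and -0.31 among arrays with lower poly-A controls.

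Ppp1r15a encodes GADD34, the inducible phosphatase subunit that reverses the phosphorylation of eIF2 and closes the response. Its signals were 1177.7, 999.1, 713.6, 680.7, 746.7 and 1032.2 in KO, against 930.4, 1306.7, 1736.1, 1292.2 and 1217.6 in WT. The lowest WT array, WT 1, fell among the KO values, and the other 4 WT arrays were above all 6 KO arrays. The log2 difference was -0.54 ± 0.17 and was not past the threshold here or under any of the 25 alternatives. It was -0.42 to -0.65 when single arrays were left out.

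Eif2ak3 encodes PERK, the ER kinase of eIF2. Its signals on the bright probe set (1449278_at) were 866.1, 1167.9, 644.3, 1130.4, 1266.8 and 988.9 in KO, against 1061.6, 1025.8, 860.9, 780.2 and 829.8 in WT. Again KO 3 was the only KO array below the WT range, with 3 KO arrays above it, and the difference was 0.12 ± 0.16, or 0.24 without KO 3 and 0.05 without KO 5. The other probe sets of Eif2ak3 (1430371_x_at and 1453505_a_at) were near the floor, at 1 to 36.3 in KO and 1.3 to 22.8 in WT, and were not tested.

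Hspa5 encodes BiP, the main chaperone of the ER lumen, whose level rises when the ER is loaded. Its brightest probe set (1416064_a_at) gave 9734.8, 11021.1, 6676.8, 9524.5, 10363.9 and 11024.4 in KO, against 9349.6, 8473.7, 9885.1, 10057 and 9696.8 in WT. The groups overlapped and KO 3 was alone far below the rest. The difference was 0.02 ± 0.11, and 0.12 without KO 3. On the second probe set (1427464_s_at) 5 KO arrays, from 4177.4 to 4966.6, were above all WT arrays, which ranged from 3248 to 4049.5, while KO 3 had 1807.2. The difference there was 0.08 ± 0.19, or 0.29 without KO 3, and neither was past the threshold. The remaining probe set (1447824_x_at) gave -0.05 ± 0.11 and did not follow the first, with r = -0.08.

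**Figure D4:**
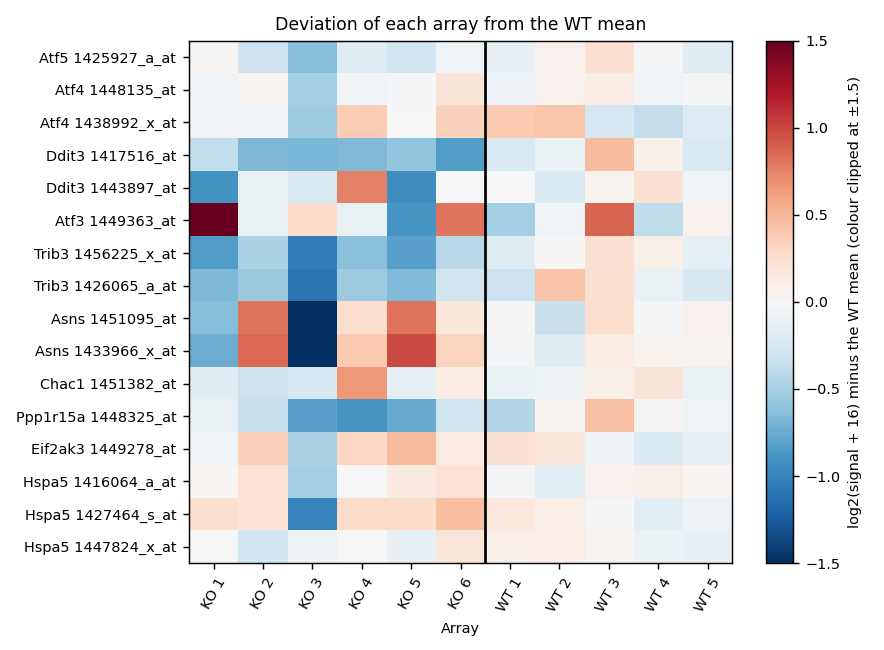
Log2(signal + 16) of each tested probe set (rows, by gene) on each array (columns, KO left of the line and WT right) minus the WT mean of that probe set; red is above and blue below, with the colour clipped at 1.5. The column of KO 3 is blue in most rows, the rows of Trib3 and Ddit3 (1417516_at) are blue on all 6 KO arrays, and the Asns rows change sign among KO arrays.

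Within groups, some pairs of the 10 genes moved together from mouse to mouse and others moved in opposite directions. After subtraction of the group means, 38 of the 45 pairs of brightest probe sets had a positive Pearson r over the 11 arrays and 19 had an r above 0.5. When KO 3 was left out, 10 pairs did, and the median r was 0.09 in place of 0.37. Asns and Hspa5 had r = 0.86, and 0.55 without KO 3. Atf4 and Hspa5 had 0.86, and 0.32 without it. Among the pairs that changed by less than 0.1 were Atf4 with Trib3 (0.81 and 0.76), Atf3 with Ppp1r15a (0.76 and 0.80) and Atf5 with Ppp1r15a (0.71 and 0.71). Over all 11 arrays 2 pairs had an r below -0.3. These were Atf3 with Eif2ak3 (-0.48, and -0.74 without KO 3) and Atf3 with Asns (-0.41 and -0.68). Without KO 3 the sign turned for Atf5 with Asns (0.33 and -0.52) and for Atf5 with Eif2ak3 (0.29 and -0.49). These values are a description over arrays that share 1 scaling and that differ in sex, RNA quality and the sums of gland and OSN markers, whose part was not tested.

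The probe sets most like Atf5 in this measure, among 18212 with a mean signal of at least 100, belonged to Rab39b (r = 0.97), Zfp358 (0.97), Cyb5r1 (0.96), Sult4a1 (0.95) and Pafah1b3 (0.95). Rab39b is a small GTPase of membrane traffic and had 354 to 572.7 in KO and 440 to 589.7 in WT. Cyb5r1, a reductase, had 519.7 to 1044 in KO and 982.9 to 1401.2 in WT. The probe sets most like Hspa5 belonged to Sdf2l1 (0.98), Ccdc85b (0.95), Wfdc18 (0.95), Manf (0.95) and Creld2 (0.95). Sdf2l1, Manf and Creld2 are themselves ER stress genes from the list of ER chaperones. Manf, a secreted ER protein, had 1627.2 to 4306.8 in KO and 2910 to 3388.1 in WT, a wider range in KO. Sdf2l1, Manf and Creld2 had their lowest signals on KO 3, at 133.7, 1627.2 and 1195.4, and so did Hspa5, at 6676.8. The r values of the probe sets most like Atf5 and Hspa5 were not computed without KO 3, whose part in them was not tested.

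The wider pathway was read from 6 lists of 134 measured genes, with the brightest tested probe set for each gene. Of these genes 1 rose and 0 fell, while among all 15133 genes 0.35% rose and 0.324% fell in the same limma fit. Among 44 other targets of ATF4, ATF5 or CHOP, 0 passed, with a median log2 difference of 0.04, beside 0.05 over all tested probe sets. The members of smallest p were enzymes of serine and one-carbon metabolism. Psat1, of serine synthesis, had 1879.8 to 2588.9 in KO and 1430.1 to 1904.8 in WT (0.43 ± 0.12). Shmt2, of mitochondrial one-carbon metabolism, had 659.4 to 1282.9 in KO and 564.8 to 743.9 in WT (0.55 ± 0.16). Other enzymes of serine and one-carbon metabolism on the list varied. Phgdh had 0.33 ± 0.12, Aldh1l2 0.22 ± 0.21, Psph 0.04 ± 0.20 and Mthfd2 0.005 ± 0.14. The differences of these 44 genes ran from -0.21 to 0.55, and 28 of them were above 0, as were 61.2% of all genes. The lower values of Trib3, Ddit3 and Ppp1r15a are outside this range. Nothing is read from that, since these genes were chosen with this comparison known, and their difference from the list was not tested.

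The machinery around eIF2, its other kinases, the eIF2 and eIF2B subunits and the phosphatases, had 0 of 18 past the threshold and a median of 0.06. Eif2b2, a subunit of the exchange factor, had 0.21 ± 0.11, and Eif2s3x, the X-linked gamma subunit of eIF2, had 0.26 ± 0.17, or 0.13 without KO 6, a female. Eif2s3x had 1723 on KO 6 and 1038.2 on KO 3, the other female, beside 865.5 to 1056.7 on the male KO arrays. The summed signal of the 18 genes was 25842 to 35634 in KO and 27637 to 33527 in WT. Of the 35 ER chaperones and genes of the IRE1 and ATF6 branches, 0 passed and 30 were above 0, with a median of 0.08; 61.2% of all genes were above 0 under this scaling. Dnajb9, a BiP cochaperone induced through XBP1, had 2372.8 to 3980.9 in KO and 3636.5 to 5156.8 in WT (-0.37 ± 0.14). Canx, the lectin chaperone calnexin, had 5700.2 to 8539.8 in KO and 5059.7 to 6952.2 in WT (0.23 ± 0.11). Of 12 cytosolic heat shock genes 0 passed, with a median of 0.11. Hspa1b, the inducible HSP70, had 447.6 to 1735.9 in KO, with the low value again on KO 3, and 609.8 to 905.5 in WT (0.51 ± 0.25). Hsp90aa1, the inducible HSP90, had 7790.4 to 9818.2 in KO and 6697.9 to 8887.6 in WT (0.18 ± 0.09). Its difference was -0.0058 when arrays were scaled to the spiked hybridization controls, where the median of all tested probe sets was -0.12.

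The gene that rose was Cebpd, a C/EBP transcription factor of inflammation and differentiation, 1 of 19 relatives of the ATF, CREB and C/EBP families. It had 2904, 2040.4, 3093, 2650, 2228.7 and 2190 in KO, against 1360.7, 978.8, 1094.3, 1378.5 and 870.3 in WT. The lowest KO array was well above the highest WT array. The log2 difference was 1.14 ± 0.15 (adjusted p = 0.000513, limma over all tested probe sets), higher in 6 of 6 KO arrays, and it passed under all 25 alternatives. Jun, the AP-1 subunit, had 1621.7 to 3417 in KO and 1509.1 to 1910.8 in WT (0.53 ± 0.15), and Jund had 0.26 ± 0.13; neither passed. The median of the 19 was 0.12.

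Partners of Atf5 in the feedback from receptor to receptor choice, and in receptor export, had 0 of 6 past the threshold and a median of -0.25. Rtp1 and Rtp2, also on this list, were not measured. Reep1, a receptor export protein, had 1369.9 to 2126.8 in KO and 1154.6 to 1383.6 in WT (0.46 ± 0.12). Rcor1, a partner of the demethylase Kdm1a, had 1226.9 to 2481.5 in KO and 2215.3 to 2963.8 in WT (-0.44 ± 0.16). Adcy3, the cyclase whose expression ends the Atf5 signal, was looked up after values were seen and had 656.3 to 989.6 in KO and 877.1 to 1309.3 in WT (-0.37 ± 0.14). The paper also uses Adcy3 as a marker of mature OSNs, and the list of mature OSN markers used here had a median of -0.46. The part of mature OSNs in the Adcy3 values was not tested.

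**Figure D5:**
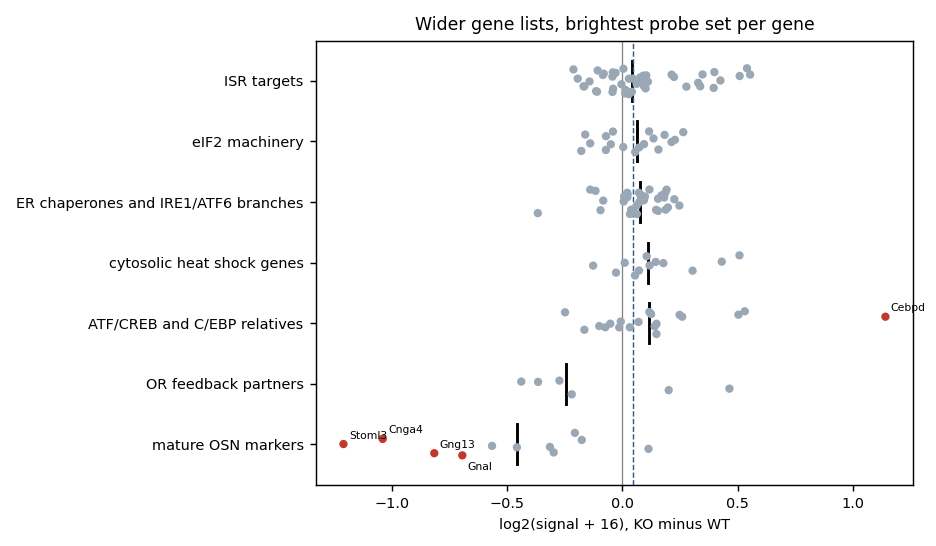
Log2 difference (KO minus WT) of each measured gene, by its brightest probe set, in 6 pathway lists and in the markers of mature OSNs; red points passed the threshold, black bars are list medians, the solid line is 0 and the dashed line the median over all genes. Cebpd stands alone at 1.14 among the pathway lists, and 4 mature OSN markers lie between -1.21 and -0.69.

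The labelled tissue carried the marker transcripts of MOE cell types, and those of mature OSNs were lower in KO. Of 11 mature OSN markers 4 fell (Stoml3, Cnga4, Gng13 and Gnal), 10 were below 0 and the median was -0.46. Their summed signal was 6097 to 8332 in KO and 10932 to 14854 in WT, without overlap, and the dimmest was Cngb1 with a mean of 34.9, so none was at 0. In whole tissue, fewer mature OSNs and less RNA per cell cannot be told apart from the arrays alone. By in situ hybridization the paper counted fewer Omp-positive cells in the ventral MOE of this mutant, but not in the dorsal MOE. The lower values of Trib3, Ddit3 and Ppp1r15a in KO stand beside the lower sum of mature OSN markers, whose part in them was not tested. Of 12 immature OSN markers 0 passed (sums 34226 to 44705 in KO and 35267 to 44424 in WT), and of 8 sustentacular markers 0 passed (30444 to 35118 in KO and 29514 to 33156 in WT). Of 10 erythroid markers listed 4 were measured, and of these Hbb-y and Hbb-bh1 rose. Hbb-bh1 passed the signal filter only through its KO arrays (mean 85.3 in KO and 13.2 in WT). Alas2 (0.17 ± 0.14) and Slc4a1 (0.34 ± 0.21) did not pass. The sums of the 4 were 1260 to 1711 in KO and 819 to 1255 in WT.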

How the data were processed

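Affymetrix mouse expression arrays measured whole MOE RNA of 6 KO and 5 WT mice, 1 mouse per array. Per the labels and the study's methods, the authors made signals with GCOS (version not given) after two-cycle labelling of a small RNA input, and the deposited values are linear intensities scaled to a Gapdh probe set. This amplification favours 3′ ends, which can affect probe sets far from them. Of 45101 probe sets, 34958 have 1 gene symbol in the platform annotation, 932 several and 9211 none; those with several were named for none. Here, log2(signal + 16) was fitted with limma 3.58.1 (R 4.3.3, lmFit and eBayes with an intensity trend, KO minus WT), leaving out 64 control probe sets and those with a mean signal under 20, which left 33662; p-values were adjusted by Benjamini-Hochberg with a threshold of 0.05. A fold on this scale understates the change of dim genes. The precision is limited by the number of arrays. Of the 19 member probe sets 16 were tested. The members and lists were chosen with earlier results of these data known. Named were every member probe set, in each of the 6 pathway lists the genes past the threshold and the 2 of smallest p, Bcl11b, and the 5 probe sets most like Atf5 and Hspa5. The fit was tested on simulated data. Alternatives were other scalings, pseudocounts, filters and covariates, and leaving out arrays; values within the sets of poly-A controls and the gland genes were added after seeing the data. Protein sequences were not used here.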

Additional observations from a re-analysis of the deposited data

Results flagged for a closer look

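Each group of 5 or 6 arrays was searched for an array whose gap to its nearest neighbour took an unusually large part of the group's range, for the 16 member probe sets and the named genes of the wider lists. Of 58 groups, 4 held such an array, where chance gives about 1 in 20. Among KO arrays, KO 3 was low for Atf4 (1448135_at), at 1997.9 beside 2732.1 to 3210.4 on the other 5. KO 3 was low for Hspa5 as well, at 6676.8 beside 9524.5 to 11024.4 (1416064_a_at) and at 1807.2 beside 4177.4 to 4966.6 (1427464_s_at). KO 6 was high for Eif2s3x, at 1723 beside 865.5 to 1056.7 on the other KO arrays. KO 6 and KO 3 are the arrays of female mice, and KO 3 had 1038.2.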

How the results depend on the processing

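Over all probe sets, 153 were past the threshold, 82 higher and 71 lower in KO. The count was 293 with quantile normalization (120 higher), 312 with scaling to the spiked hybridization controls (58 higher and 254 lower), 186 with scaling to the array median (90 higher and 96 lower), 345 with array weights (225 higher) and 282 without KO 2 and KO 3, which had the highest Gapdh 3′/5′ ratios (202 higher). It was 85 to 212 when 1 array was left out. The spiked controls moved the median of all probe sets to -0.12, beside 0.05, and member differences under that scaling are read relative to it. Among the members the count of 1 (Trib3) was 2 with quantile normalization and 3 with the spiked controls (Ddit3 and both Trib3 probe sets), and 0 with array-median scaling, without the intensity trend and with sex as a covariate; it was 0 to 1 with 1 array left out. The member count stayed at 1 (Trib3) among males only. Among the wider lists the count of 1 (Cebpd) was 2 with quantile normalization and among males only, 3 with the spiked controls, 4 with array weights and 4 without KO 2 and KO 3, and 1 to 3 with 1 array left out, 3 being without KO 3. Hsp90aa1 turned to -0.0058 with the spiked controls, beside the median of -0.12 under that scaling. Differences of Atf5, Trib3, Ddit3 and Ppp1r15a stayed below 0 in all alternatives run. Those of Atf3, Atf4, Asns, Chac1, Eif2ak3 and Hspa5 took both signs, and the causes were not tested. Eif2ak3 was below 0 only with the spiked controls, at -0.06, and so was the Hspa5 probe set 1427464_s_at, at -0.11. Both values were above the median of -0.12 under that scaling. Arrays with the same replicate number did not deviate together (correlations of -0.08, -0.28, -0.03, -0.14 and 0.01). KO and WT arrays of different numbers had correlations of -0.27 to 0.25. Whether mice of the same number shared a litter or a batch was not determined. With the replicate block, which drops KO 6, 92 probe sets passed, 0 of them members and 1 in the wider lists. Of the tested member probe sets the dimmest, of Ddit3, had a mean signal of 34.4 and a standard error of 0.27, beside a difference of -0.23.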
